A study of Mus musculus with 4 samples.

Results

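The 10 genes described here encode nuclear receptors that act in the liver: Hnf4a, Nr5a2, Nr2f6, Rxra, Nr1i2, Nr1i3, Nr1h3, Thrb, Nr3c1 and Esr1. They were chosen by name, with earlier results of these data known, from the 33924 gene symbols counted in each library. The 4 libraries came from whole liver of C57BL6 mice, with 1 library for the age of 3 months and 1 each for 9, 15 and 21 months. According to the methods of the study, the animals were males of the substrain C57BL/6Rj, fed ad libitum in a light-dark cycle, and no agent or altered allele is named for any age. Each library was a pool of RNA from 24 mice, 4 for every one of 6 sampling times spread over the day. The study asked which genes keep a steady level with age, and Nr3c1 was among the genes it considered as reference genes for normalisation.

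There was 1 library per age and there were no replicates. Differences between libraries are therefore differences between single pools, and age cannot be told apart from anything else that differed between those pools. All intervals given cover counting error only. In whole tissue, fewer cells of a type and less RNA per cell cannot be told apart.

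Nuclear receptors are transcription factors that bind DNA through a pair of zinc fingers and, in most cases, are switched by a small lipophilic ligand in a separate domain. Many bind as heterodimers with a retinoid X receptor, others as homodimers or monomers, and they recruit corepressors or coactivators according to their ligand state. In liver they set the programmes for bile acids, lipids, glucose, and the breakdown of drugs and hormones.

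The libraries held 525772 to 958586 counts on genes, with the lowest number at 15 months, so 1 count stood for 1.04 to 1.90 cpm, the count of a gene scaled to a library total of 1000000. Between 6.67 and 8.42% of the records fell on genes, and 72.2 to 76.7% were set aside because their alignment was not unique. The reads were made from capped 5′ ends, so that a long transcript should not give more reads than a short one. Levels of different genes are nevertheless given both as cpm and as cpm per kb of merged exon. All 8 hepatocyte markers were present, with summed levels between 85558 and 97262 cpm.

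The reads begin at the start sites of transcripts, and the windows of 250 bases before an annotated start are shown for 1 transcript each of the 3 members with the most counts, in mouse build NCBIM37 (mm9) and the GENCODE annotation of that build. They lie at chr2:163372673-163372922 on the plus strand for the transcript Hnf4a-001, chr2:27532471-27532720 on the plus strand for Rxra-001 and chr1:173143851-173144100 on the plus strand for Nr1i3-001. Hnf4a has 6 different annotated starts spread over 43275 bases and Rxra 5 over 34143 bases, and the windows shown for both lie inside the bounds of their genes. CG dinucleotides are in capitals.
Hnf4a: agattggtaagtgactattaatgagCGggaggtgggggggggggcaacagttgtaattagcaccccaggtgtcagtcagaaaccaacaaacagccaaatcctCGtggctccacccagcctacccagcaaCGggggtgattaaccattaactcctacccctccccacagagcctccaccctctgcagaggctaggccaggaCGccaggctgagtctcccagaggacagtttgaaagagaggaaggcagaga
Rxra: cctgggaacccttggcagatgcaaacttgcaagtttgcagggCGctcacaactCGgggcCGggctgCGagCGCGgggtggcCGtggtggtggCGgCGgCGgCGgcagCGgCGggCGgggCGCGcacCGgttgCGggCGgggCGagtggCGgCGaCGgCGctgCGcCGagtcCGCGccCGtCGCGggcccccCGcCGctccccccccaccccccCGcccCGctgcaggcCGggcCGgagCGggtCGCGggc
Nr1i3: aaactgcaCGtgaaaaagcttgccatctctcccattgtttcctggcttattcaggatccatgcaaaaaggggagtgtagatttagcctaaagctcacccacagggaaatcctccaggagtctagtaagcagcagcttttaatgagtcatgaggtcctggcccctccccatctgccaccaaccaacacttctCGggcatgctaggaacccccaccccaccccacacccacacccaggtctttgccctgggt
The windows differ in kind. The Rxra window held 40 CG dinucleotides, the Hnf4a window 4 and the Nr1i3 window 2, where the median of all 22181 windows of this length was 9.

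Of the remaining members, Nr2f6 held 42 CG dinucleotides in its window, Nr3c1 22, Nr1h3 7, Esr1 4, and Nr1i2, Nr5a2 and Thrb 2 each. The motif AGGTCA, the half-site that many nuclear receptors bind, was searched on both strands. It was found in the window of 1 member, Nr5a2, and in 12.3% of all windows. TATAAA was found in the windows of Nr5a2 and Thrb and in 12.3% of all windows. These are matches of letters and say nothing of binding.

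All 10 genes are annotated as protein-coding. In build NCBIM37, Hnf4a lies on chromosome 2 from 163332544 to 163398646 (plus strand), Rxra on the same chromosome from 27531960 to 27618477 (plus strand), and Nr1h3 there from 91024218 to 91042991 (minus strand). Chromosome 1 holds Nr1i3 from 173144101 to 173150832 (plus strand) and Nr5a2 from 138740161 to 138857004 (minus strand). Nr2f6 lies on chromosome 8 from 73898022 to 73905859 (minus strand), Esr1 on chromosome 10 from 5340927 to 5734948 (minus strand), Thrb on chromosome 14 from 18493474 to 18870602 (plus strand) and Nr1i2 on chromosome 16 from 38248409 to 38294910 (minus strand).

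The members spanned a wide range of levels. By mean cpm over the 4 ages, the order was Hnf4a (362), Rxra (255.4), Nr1i3 (230), Nr1h3 (69.5), Esr1 (59.8), Nr3c1 (44.4), Thrb (37.8), Nr5a2 (30.2), Nr1i2 (29.3) and Nr2f6 (13.1). Neighbours in this order had ranges over the 4 ages that stayed apart in only 3 cases, Hnf4a above Rxra, Nr1i3 above Nr1h3, and Nr1i2 above Nr2f6.

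Per kb of exon the order was Hnf4a (72.1 cpm per kb), Nr1i3 (52.1), Rxra (46.8), Nr1h3 (27.7), Nr1i2 (11.5), Nr5a2 (7.87), Nr3c1 (5.98), Thrb (5.71), Nr2f6 (4.39) and Esr1 (4.38). Here the ranges stayed apart for Hnf4a above Nr1i3, Rxra above Nr1h3, and Nr1h3 above Nr1i2. On both scales the same 4 genes led, and Esr1, which stood above Nr3c1 by cpm, came last per kb.

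**Figure D1:**
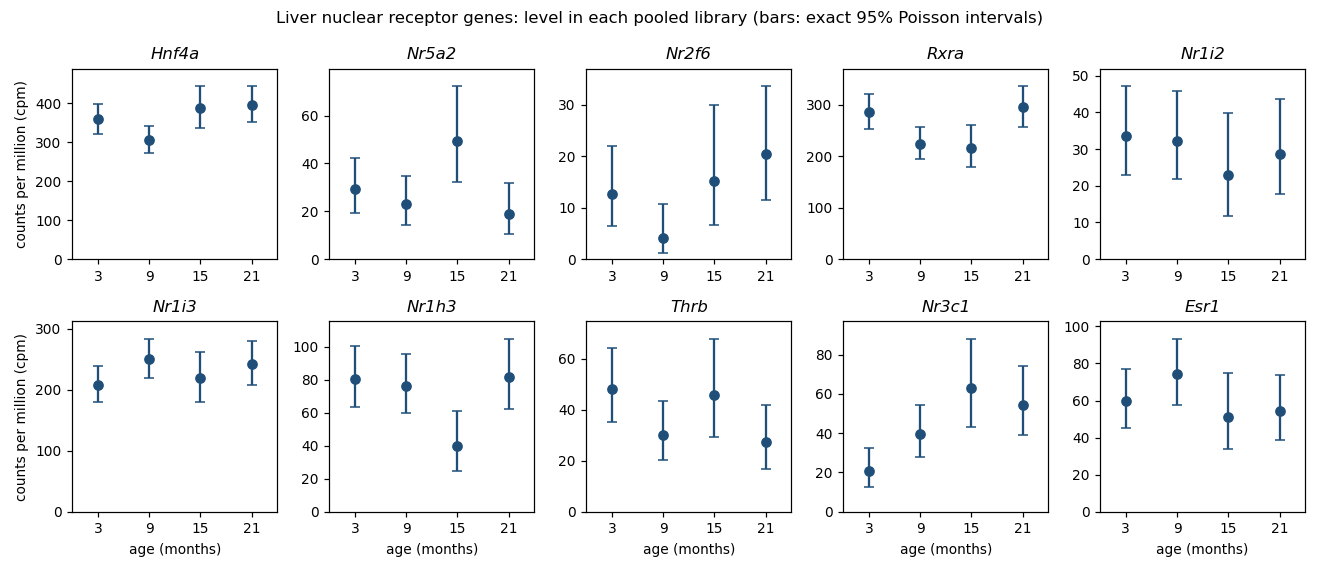
Level of each of the 10 genes in cpm (vertical axes, each starting at 0) in the 4 pooled libraries by age in months; points are the single libraries and bars exact 95% Poisson intervals. Nr1h3 lies at 39.9 cpm at 15 months against 76.2 to 81.5 cpm at the other ages, and Nr3c1 lies at 20.9 cpm at 3 months against 39.6 to 62.8 cpm later.

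Whether the 4 counts of a gene differed by more than counting noise was tested with a chi-square test over all 7362 genes with at least 20 counts in total, after scaling each library by the geometric mean of the genes seen in every library, with Benjamini-Hochberg adjustment over all of them. The test was passed by 3 of the 10 members (Rxra, Nr3c1 and Nr1h3), where 33% of all genes tested passed it. At an unadjusted p of 0.05, 5 members and 44.1% of all genes passed. The share of members that passed was thus close to that of genes in general. The test sees smaller differences in genes with more counts, so the share called in a list also depends on its counts.

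No member was called for a linear trend with age. In edgeR's quasi-likelihood test of a linear trend, 0 of the 10 members passed at an adjusted p of 0.05, against 6 of 5569 genes (0.108%). The standard errors of the members' log2 changes from 3 to 21 months were 0.36 (Hnf4a) to 1.01 (Nr2f6). Moderate trends can therefore not be excluded. At an unadjusted p of 0.05, 1 member (Nr3c1) passed in edgeR, against 290 of all 5569 genes. In DESeq2, 0 members passed, adjusted or not, against 130 of 5569 genes at an unadjusted p of 0.05.

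Hnf4a encodes a receptor that binds DNA as a homodimer and is a central regulator of hepatocyte genes. It had 343, 293, 204 and 291 counts at 3, 9, 15 and 21 months, or 359, 306, 388 and 395 cpm. The lowest level was at 9 months and the highest at 21 months, and the scaled 21 over 9 month ratio was 1.23 (95% interval 1.04 to 1.45). Between 21 and 3 months the ratio was 1.07 (0.914 to 1.26). The chi-square test did not call it (adjusted p = 0.177), although it passed where total counts served for scaling (adjusted p = 0.0323). Hnf4g, its closest relative, had 0 counts in all libraries, where 3 counts correspond to 3.13 to 5.71 cpm.

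Nr5a2 encodes liver receptor homologue 1 (LRH-1), which binds DNA as a monomer and acts on bile acid and cholesterol genes. Its counts were 28, 22, 26 and 14, or 29.3, 23.0, 49.5 and 19.0 cpm. The 15 month library was the highest and the 21 month library the lowest, with a 21 over 15 month ratio of 0.410 (0.198 to 0.814). The adjusted p of the chi-square test was 0.0704, which became 0.0325 with total counts for scaling and 0.0462 without the 3 month library. Of all 32-base windows of its exons, 9.1% had a second exact match in the genome, the highest share among the members, so its count may miss reads that were set aside.

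Nr2f6 encodes EAR2, an orphan receptor of the COUP-TF family that mostly represses transcription. With 12, 4, 8 and 15 counts, or 12.6, 4.17, 15.2 and 20.4 cpm, it was the least abundant member by cpm. The 9 month library stood lowest and the 21 over 9 month ratio was 4.64, with a wide interval of 1.48 to 19.2. The chi-square test did not call it (adjusted p = 0.0862). The exons of Nr2f6 share 54.4% of their bases with Ocel1 on the opposite strand (13, 12, 6 and 0 counts), and whether the counting used strand is not given in the sources used here.

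Rxra encodes the retinoid X receptor α, the partner with which Nr1i2, Nr1i3, Nr1h3 and Thrb bind DNA. It had 273, 215, 114 and 217 counts, or 286, 224, 217 and 295 cpm. The libraries of 3 and 21 months were high, and those of 9 and 15 months low. Rxra differed among the 4 libraries (chi-square adjusted p = 0.00645). Scaled to 3 months, the level was 0.805 (0.670 to 0.966) at 9 months, 0.694 (0.553 to 0.867) at 15 months and 1.01 (0.837 to 1.21) at 21 months.

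The call of Rxra rested on the 15 month library, as the adjusted p was 0.111 without it. The other genes for retinoid X receptors were low. Rxrb had 14, 12, 11 and 8 counts, so Rxra made up 91.2 to 96.4% of the reads of the pair. The sequence of high and low libraries was most closely followed by Slc25a44 (73, 56, 30 and 59 counts) and Cox7a2 (129, 99, 55 and 105 counts), at distances of 0.0325 and 0.0397 in centred log-ratios over 4 libraries among 2445 genes.

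Among the partners of Rxra, Nr1i3 encodes the constitutive androstane receptor (CAR) and Nr1i2 the pregnane X receptor (PXR), a pair that senses drugs, steroids and bile acids. Nr1i3 had 199, 240, 115 and 178 counts, or 208, 250, 219 and 242 cpm. Its highest level was at 9 months, with a 9 over 3 month ratio of 1.23 (1.02 to 1.496), and the chi-square test did not call it (adjusted p = 0.138). Nr1i3 shares 51.4% of its exon bases with Tomm40l on the opposite strand (73, 28, 21 and 59 counts). Reads on the shared bases can only be assigned to 1 of the genes where the counting used strand.

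Nr1i2 had 32, 31, 12 and 21 counts, or 33.5, 32.3, 22.8 and 28.5 cpm. The 15 month library was the lowest, yet the 4 libraries were indistinguishable at this depth (adjusted p = 0.582). The variance of its log level, 0.0488, was almost that of counting alone, 0.0486. There were 6.22, 7.74, 9.58 and 8.48 reads of Nr1i3 for each read of Nr1i2.

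Nr1h3 encodes liver X receptor α (LXRα), a sensor of oxysterols that acts on fatty acid synthesis and cholesterol export. It had 77, 73, 21 and 60 counts, or 80.5, 76.2, 39.9 and 81.5 cpm. The 3, 9 and 21 month libraries were close to each other and the 15 month library stood apart below them. Nr1h3 differed among the libraries (chi-square adjusted p = 0.0269).

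Scaled to 3 months, the level of Nr1h3 was 0.453 (0.266 to 0.742) at 15 months and 0.985 (0.691 to 1.40) at 21 months, and from 15 to 21 months the ratio was 2.17 (1.30 to 3.76). The call rested on the 15 month library, the least deeply sequenced one: without it the adjusted p was 0.994. With total counts for scaling it was 0.0641, which does not pass.

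The other liver X receptor gene, Nr1h2, had 22, 8, 18 and 15 counts, or 23.0, 8.35, 34.2 and 20.4 cpm. It was highest at 15 months and also differed among the libraries (chi-square adjusted p = 0.0472). Nr1h3 made up 77.8, 90.1, 53.8 and 80.0% of the reads of both genes, and its share at 15 months had an exact 95% binomial interval of 37.2 to 69.9%, where the intervals of the other ages began at 68.3% or higher. These shares do not depend on how the libraries were scaled. The interval at 15 months overlapped those at 3 and 21 months, and lay apart from that at 9 months. The pairs of related receptors were compared after their values had been seen.

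The genes closest to Nr1h3 in their course over the 4 libraries were March8 (49, 44, 12 and 37 counts) and Tmem150a (43, 36, 11 and 31 counts), at distances of 0.0786 and 0.0889. Kupffer cells, the macrophages of the liver, also express LXRα. All 8 Kupffer cell and macrophage markers were detected, with summed levels of 698, 862, 890 and 948 cpm. Among them, Cd5l stood at 316, 426, 430 and 433 cpm and Clec4f at 137.0, 136.7, 131.2 and 140.0 cpm. The other markers went both ways from 9 to 15 months. Vsig4 went from 44.86 to 22.82 cpm, C1qa from 39.64 to 22.82 and Csf1r from 114.8 to 106.5. Timd4 went from 32.34 to 64.67 cpm, Marco from 18.78 to 38.04 and Emr1 from 49.03 to 74.18. Unlike Nr1h3, Vsig4 and C1qa were lowest at 3 months (17.78 and 21.97 cpm). The part of these cells in the level of Nr1h3 was not tested.

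Thrb encodes thyroid hormone receptor β, the main receptor of this hormone in hepatocytes. It had 46, 29, 24 and 20 counts, or 48.1, 30.3, 45.6 and 27.2 cpm. The libraries of 3 and 15 months were higher than those of 9 and 21 months, and the 21 over 3 month ratio was 0.550 (0.308 to 0.948). The test over the 4 libraries did not call it (adjusted p = 0.160). Thra, which encodes the other receptor for the hormone, had 19, 14, 5 and 5 counts, and Thrb made up 67.4 to 82.8% of the reads of the pair.

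Nr3c1 encodes the glucocorticoid receptor, which is held by chaperones in the cytoplasm until it binds its hormone. It had 20, 38, 33 and 40 counts, or 20.9, 39.6, 62.8 and 54.4 cpm. The 3 month library was the lowest and the 15 and 21 month libraries the highest. Nr3c1 differed among the 4 libraries (chi-square adjusted p = 0.00703), and its scaled level relative to 3 months was 1.94 (1.103 to 3.52) at 9 months, 2.74 (1.53 to 5.04) at 15 months and 2.53 (1.44 to 4.57) at 21 months. The libraries of 15 and 21 months could not be distinguished (ratio 0.922, 0.567 to 1.51).

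The call of Nr3c1 rested on the 3 month library with its 20 counts, as the adjusted p was 0.484 without it. In the trend with age, the log2 change from 3 to 21 months was 1.33 (SE 0.59), with an unadjusted p of 0.0282 and an adjusted p of 0.848 in edgeR, so the gene did not pass. The log2 change was 0.57 without the 3 month library and 2.29 without the 21 month library. The gene lies on chromosome 18 from 39570199 to 39650955 on the minus strand.

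Nr3c2, which encodes the mineralocorticoid receptor, had 19, 6, 6 and 25 counts and differed among the libraries as well (chi-square adjusted p = 0.0021). Nr3c1 made up 51.3, 86.4, 84.6 and 61.5% of the reads of the pair. The share was highest at 9 and 15 months, with exact 95% binomial intervals of 72.6 to 94.8% and 69.5 to 94.1%. These lay apart from the interval at 3 months (34.8 to 67.6%) and overlapped that at 21 months (48.6 to 73.3%). Closest to Nr3c1 in course were Gm13341 (49, 86, 74 and 85 counts) and Eif4ebp1 (641, 1113, 973 and 1054 counts), at distances of 0.102 and 0.139.

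Some summed levels of markers of other cells were lowest at 3 months, as Nr3c1 was. All 6 stellate cell and fibroblast markers were detected, with summed levels of 332, 565, 540 and 514 cpm. Dcn alone stood at 201, 393, 308 and 298 cpm. Lrat, Reln and Dcn were lowest at 3 months, and Des, Col1a1 and Col3a1 were not. The summed Kupffer cell markers were lowest at 3 months too, but Clec4f, Csf1r and Emr1 among them were not. The 6 markers of sinusoidal endothelium summed to 630, 539, 500 and 626 cpm. Bile duct markers, with Epcam at 0 in every library, summed to 16.7 to 41.8 cpm, and neutrophil markers, with S100a9 and Ly6g at 0, to 1.04 to 11.4 cpm. The 6 lymphocyte markers, with Ms4a1 at 0, summed to 93.2 to 194 cpm, and the 3 erythroid markers to 991 to 1710 cpm. The part of these cells in the level of Nr3c1 was not tested.

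Esr1 encodes estrogen receptor α, which is present in the liver of both sexes. It had 57, 71, 27 and 40 counts, or 59.6, 74.1, 51.4 and 54.4 cpm. The 9 month library was the highest, with a 15 over 9 month ratio of 0.618 (0.381 to 0.975), and the 4 libraries did not pass the chi-square test (adjusted p = 0.192). Esr2 had 0 counts in every library. The annotated starts of Esr1 are spread over 98166 bases, those of Thrb over 340325 bases and those of Hnf4a over 43275 bases, and counts per gene do not separate their promoters.

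**Figure D2:**
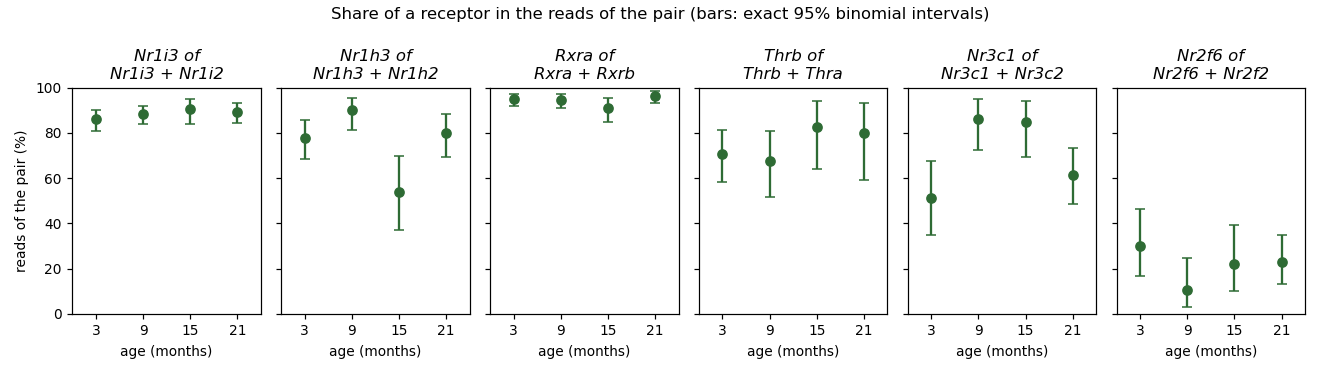
Share of a receptor gene in the reads of a pair of related receptor genes (vertical axis, %) in each library by age in months; bars are exact 95% binomial intervals. Nr1h3 makes up 53.8% of its pair at 15 months against 77.8 to 90.1% at the other ages, and Nr3c1 51.3% of its pair at 3 months.

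Between the ends of the age range, 21 against 3 months, 2 members were at least 1.5-fold higher (Nr3c1 and Nr2f6), where 22.4% of all genes tested were, and 2 were at least 1.5-fold lower (Thrb and Nr5a2), where 25.2% of all genes were. For Nr2f6 the ratio was 1.58 (0.691 to 3.70) and for Nr5a2 0.632 (0.308 to 1.24), both with intervals that included 1. The median log2 ratio was -0.01 over the 10 members and -0.03 over all genes tested. For Nr1i3 the ratio was 1.13 (0.919 to 1.39), for Nr1i2 0.830 (0.455 to 1.48) and for Esr1 0.887 (0.577 to 1.35).

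**Figure D3:**
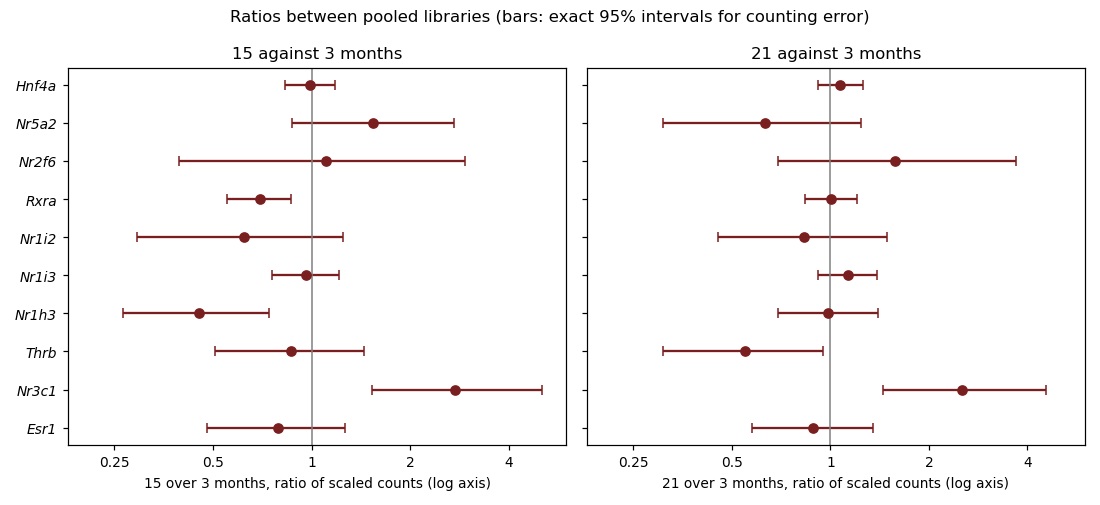
Ratios of scaled counts of the 15 month (left) and 21 month (right) library to the 3 month library on a log axis for the 10 genes; points are ratios and bars exact 95% intervals for counting error, and the line marks a ratio of 1. At 15 months Nr1h3 (0.453) and Rxra (0.694) lie below 1 and Nr3c1 (2.74) above it with their whole intervals, and at 21 months only Nr3c1 (2.53) and Thrb (0.550) do so.

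For RNA-sequencing data, the study judged the steadiness of genes by the centred log-ratio (clr), the natural log of a count over the geometric mean of its library. It required a mean above and a variance below the medians of all genes. Here these medians were -0.21 and 0.16, over the 8704 genes that had a count at every age. The study used a smaller set, of annotated start sites with at least 20 reads in a library. Its medians may therefore differ from those used here. The mean lay above its median for 9 members and the variance below its median for 8, and the same 8 met both, where 38% of all genes met both. With a pseudocount of 0.5 or 1, which took in all genes with any count, the mean lay above its median for 10 members. The variance then lay below its median for 9, among them Nr3c1.

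Without a pseudocount, Nr3c1 had a variance of 0.210 and did not meet the criterion on variance. In the paper, it failed the assessments by these RNA-sequencing data and by data mining. It is listed as passing those by Nanostring on individual samples and by public data on tissues and on the sexes. The text of the paper nevertheless describes Nr3c1 as very variable between tissues. In the public data that compared livers of different age, Nr3c1 is listed as not detectable. Nr2f6 had a mean of -0.44 and its variance was 0.437, so it met neither criterion. Hnf4a had the lowest variance of the members with this scaling, 0.0073, and 2.34% of all genes had a lower one. With total counts for scaling, Nr1i3 (0.00738) lay below Hnf4a (0.0137). Without the 9 month library the variance of Hnf4a was 0.00207, and without the 15 month library that of Nr1h3 was 0.000146, below the 0.00955 of Hnf4a. With all libraries and the main scaling, Hnf4a was followed by Nr1i3 (0.0131, with 4.99% of genes lower), Rxra (0.0323, 13.8%), Esr1 (0.0422, 17.9%), Nr1i2 (0.0488, 20.6%) and Thrb (0.0744, 29.7%).

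Nr5a2 (0.144, with 46.9% of genes lower) and Nr1h3 (0.151, 48.3%) lay just under the median. Counting noise alone gives a higher variance to genes of lower count, and among genes with at least 10 counts in every library only 5 of the 9 members left were below the median variance, and 5 of 9 above the median level. The variance expected from counting was 0.00367 for Hnf4a, 0.00542 for Rxra and 0.131 for Nr2f6. It was 0.0329 for Nr3c1, whose observed variance was 0.0308 without the 3 month library. The variance of Rxra was 0.0144 without the 15 month library.

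**Figure D4:**
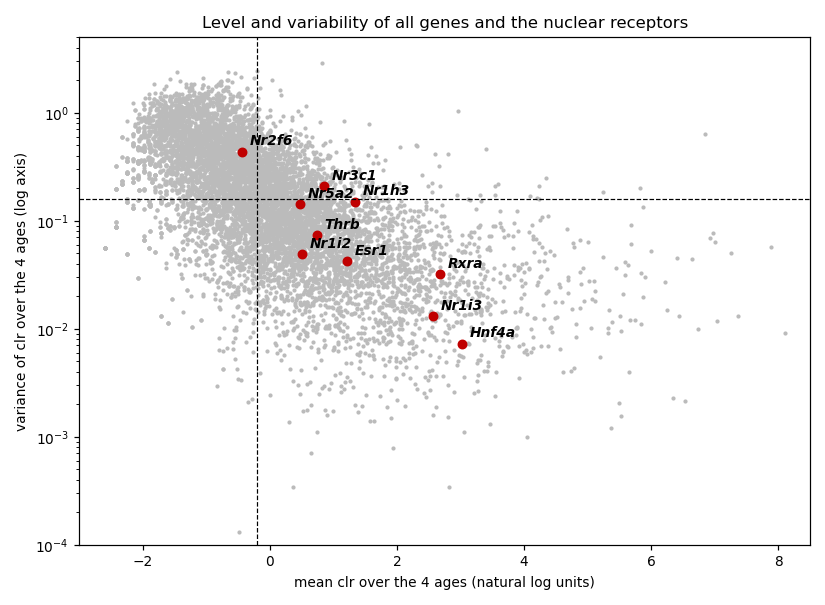
Mean (horizontal axis, natural log units) and variance (vertical axis, log scale) of the centred log-ratio over the 4 ages for the 8704 genes with counts in every library (grey) and the 10 receptor genes (red); dashed lines are the medians over all genes. All receptors but Nr3c1 and Nr2f6 lie in the lower right field of high level and low variance, and Hnf4a lies lowest, at a mean of 3.02 and a variance of 0.0073.

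The 10 genes held 56.0, 54.2, 50.4 and 56.7% of the reads of the 48 nuclear receptor genes examined, and Hnf4a, Nr1i3 and Rxra held 73.6 to 76.6% of the reads of the 10. Of the 38 other nuclear receptor genes, 11 had no count in any library. Of the 20 that could be tested, 9 differed among the libraries in the chi-square test, against 33% of all genes, led by Rara, the retinoic acid receptor α (10, 16, 23 and 5 counts, adjusted p = 0.000161). Others were Nr3c2, Nr2f2, the orphan receptor COUP-TFII (28, 34, 28 and 51 counts, adjusted p = 0.00742), and Nr2c2, the orphan receptor TR4 (7, 5, 14 and 7 counts, adjusted p = 0.0130). Nr2f6 made up between 10.5% (9 months) and 30% (3 months) of the reads of the pair with Nr2f2.

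Coregulators carry out the action of the receptors. None of the 12 coactivator genes tested was called by the chi-square test, against 33% of all genes. At an unadjusted p of 0.05, 0 passed, against 44.1% of all genes. The most counts were those of Pnrc1 (73, 60, 29 and 51) and Crebbp (56, 54, 32 and 39). All 14 genes of this list together had 371, 354, 213 and 254 counts, so only large differences could be seen. Of 6 corepressor genes, 2 were called, against 33% of all genes: Nrip1, which encodes RIP140 (25, 9, 25 and 20 counts, adjusted p = 0.00447), and Ncor1, which encodes the corepressor of unliganded receptors (55, 96, 54 and 60 counts, adjusted p = 0.0207). The difference between these lists was not tested.

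Of the 9 tested genes for receptor chaperones and for making or clearing ligands, 7 were called, against 33% of all genes. Aldh1a1, which makes retinoic acid from retinal, had 1627, 583, 919 and 886 counts (adjusted p = 7.69e-108), with the lowest level at 9 months. Hsd11b1, which regenerates active glucocorticoid, had 162, 326, 142 and 221 counts (adjusted p = 1.69e-11). Hsp90ab1, a chaperone of steroid receptors, had 944, 770, 369 and 581 counts (adjusted p = 1.07e-10).

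The known target genes of a receptor need not follow the level of its RNA. Of the LXR targets, a list that holds Nr1h3 itself, 6 of 9 tested were called, against 33% of all genes. Scd1, the stearoyl-CoA desaturase, had 22386, 12989, 8035 and 15101 counts, and Srebf1, the regulator of fatty acid synthesis, had 142, 103, 51 and 133 counts (adjusted p = 0.000255). Relative to the mean of the 4 libraries, Srebf1 stood at 0.678 at 15 months and Nr1h3 at 0.532, their lowest values, while Abca1, the cholesterol exporter (165, 136, 134 and 138 counts, adjusted p = 0.00789), had its highest value there, 1.27. Abcg1, another sterol exporter, had 5, 17, 1 and 15 counts (adjusted p = 0.00729).

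Of the glucocorticoid receptor targets, 5 of 10 were called, against 33% of all genes, and those named did not share 1 course. Fkbp5, a co-chaperone of the receptor, had 37, 15, 12 and 7 counts (adjusted p = 0.00202), with a 21 over 3 month ratio of 0.239, the opposite direction to Nr3c1. Dusp1, a phosphatase that dampens MAP kinases, had 2, 12, 7 and 16 counts (adjusted p = 0.0157) and was lowest at 3 months, as Nr3c1 was. The amino acid enzymes Tat (743, 1053, 337 and 569 counts) and Sds (351, 550, 179 and 356 counts) were highest at 9 and lowest at 15 months.

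Of the thyroid hormone receptor targets, 3 of 5 were called, against 33% of all genes. Thrsp, a factor of fat synthesis, had 216, 239, 68 and 180 counts (adjusted p = 4.13e-06) and was lowest at 15 months. Dio1, the deiodinase that activates the hormone, had 20, 11, 25 and 7 counts (adjusted p = 0.0003) and was highest at 15 months. Me1, the malic enzyme, had 84, 39, 23 and 51 counts (adjusted p = 0.000753).

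**Figure D5:**
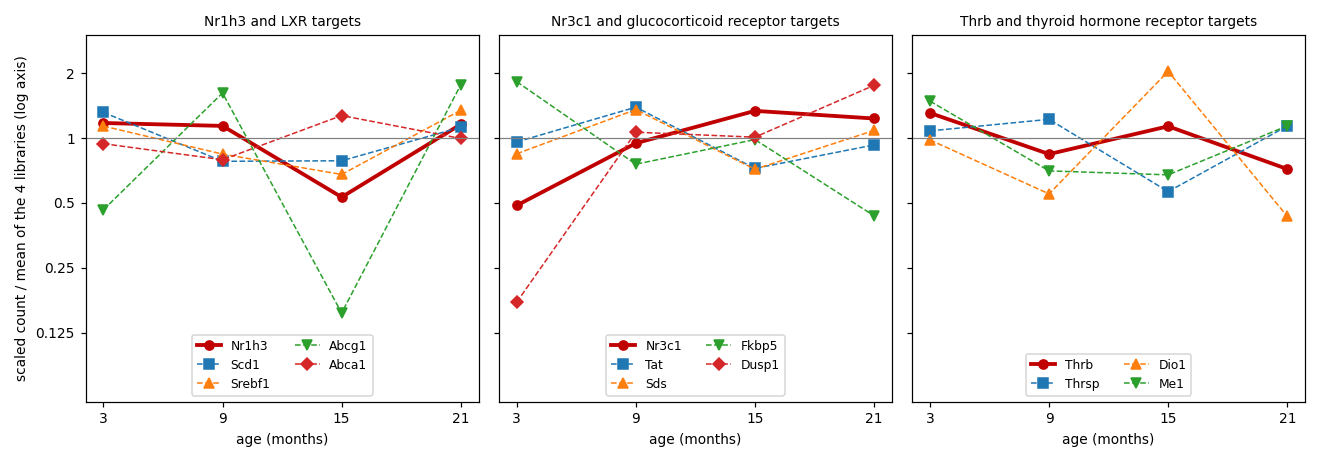
Scaled count of Nr1h3, Nr3c1 and Thrb (red lines) and of named target genes (dashed lines), each divided by its mean over the 4 libraries, on a log axis by age in months; each point is 1 pooled library. Nr1h3 and Srebf1 are lowest at 15 months (0.532 and 0.678), Nr3c1 and Dusp1 lowest at 3 months (0.487 and 0.173), and Fkbp5 highest at 3 months (1.82).

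Of the CAR and PXR targets, 4 of 7 tested were called, against 33% of all genes. Cyp3a11, the drug-metabolising enzyme, had 1451, 1281, 746 and 476 counts (adjusted p = 2.58e-63) and a 21 over 3 month ratio of 0.415, while Nr1i2 and Nr1i3 were not called. The other called genes were Gstm1, a glutathione transferase (5584, 4804, 2105 and 3583 counts), Abcc3, a bile salt exporter (322, 220, 120 and 178 counts), and Alas1, the first enzyme of haem synthesis (226, 341, 160 and 214 counts).

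Of the LRH-1 targets, 2 of 6 were called, against 33% of all genes: Scarb1, the receptor for high-density lipoprotein (169, 109, 75 and 88 counts, adjusted p = 0.00578), and Nr0b2, the repressor SHP (25, 20, 12 and 4 counts, adjusted p = 0.0465). Their 21 over 3 month ratios were 0.658 and 0.202, while those of the targets not called were 0.934 for Cyp8b1, 1.11 for Abcg5, 1.14 for Cyp7a1 and 1.30 for Abcg8. The median log2 ratio of the list was 0.03. Of the HNF4A targets, 11 of 12 were called, against 33% of all genes, and so were 8 of the 8 hepatocyte markers. Most genes of both lists have many counts, where the test also calls small differences. The targets summed to 43950, 38968, 21385 and 29056 counts. The targets with the smallest adjusted p were Ttr, transthyretin (15342, 14125, 5834 and 9187 counts), and Apob (11715, 8798, 6336 and 7583 counts). They were followed by Cyp2d9 (5146, 4223, 2304 and 2962 counts) and Otc, a urea cycle enzyme (613, 863, 520 and 728 counts). In the trend with age, edgeR called 0 of the 82 genes tested from these lists, and DESeq2 called 0 genes. At an unadjusted p of 0.05, 4 of the 82 passed in edgeR, against 290 of all 5569 genes.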

How the data were processed

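The study's libraries were made from RNA with uncapped molecules removed and linkers ligated to capped 5′ ends, and short SOLiD reads, which the authors aligned in the CLC Genomic workbench (mm9). Raw counts per gene symbol were deposited, not normalised, and HTSeq is named in the submitters' processing notes. The gene annotation and strand setting of the counting are not given in the sources used here. Records not assigned to a gene were left out.

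Libraries were scaled by the geometric mean of the 8704 genes with a count in every library (clr). Pearson's chi-square test with 3 degrees of freedom was applied to genes with at least 20 counts in total, with Benjamini-Hochberg adjustment, and compares these libraries, not ages. The linear trend with age was tested with edgeR 4.0.16 (quasi-likelihood, TMM, filterByExpr, 2 residual degrees of freedom). Its common dispersion was 0.0733, a coefficient of variation of 27.1% beyond counting. DESeq2 1.42.0 served as an alternative. Intervals at 95% were exact (Poisson for levels, Clopper-Pearson for shares and ratios). R 4.3.3 and Python 3.11.15 with scipy 1.17.1 were used, and tests were tried on simulated data. Positions come from the annotation of NCBIM37.

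The 10 genes were chosen by name, and they and the lists were chosen with earlier results of these data known. All 10 members are named. Of each list at most 4 called genes with the smallest adjusted p are named, or the 2 with the most counts where none was called. For each called member the 2 genes nearest in centred clr are given. The related receptor genes, the LRH-1 targets that were not called and the genes overlapping members fall outside this rule. So do the single cell type markers. All of these were named after their values had been seen. Alternatives were other scalings, filters, pseudocounts and leaving out each library.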

Additional observations from a re-analysis of the deposited data

How the results depend on the processing

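No paired analysis was possible because there was 1 library per age. The chi-square test called 3 members (Rxra, Nr3c1, Nr1h3). It called 1 to 3 when single libraries were left out: only Nr3c1 without the 15 month library, and Rxra, Nr1h3 and Nr5a2, but not Nr3c1, without the 3 month library. With total counts it called 4 (Hnf4a, Nr5a2, Nr3c1, Rxra). The number of genes called without single libraries was 1405 to 1734. With at least 10 counts in every library 1238 genes were called, 5 members lay below the median variance and 5 above the median mean of clr, 1 member was at least 1.5-fold higher at 21 than at 3 months, and 476 genes were higher and 511 lower; fewer genes were tested there. With a pseudocount of 0.5 or 1, also 1 member was higher, and 9 members lay below the median variance and 10 above the median mean of clr. In the trend with age, DESeq2 called 0 genes (130 at an unadjusted p of 0.05), total counts 2, and leaving out single libraries 7 to 23.

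Slopes of members that were not called changed sign: Rxra to 0.034 with total counts, and, when single libraries were left out, Rxra ranged from -0.66 to 0.49, with 0.09 without the 15 month library, Nr1i3 from -0.18 to 0.18, Nr1h3 from -1.45 to 0.026, with 0.0045 without the 15 month library, and Nr5a2 from -0.62 to 1.06 (log2 change from 3 to 21 months). The cause was not tested. The adjusted p over the alternatives with all ages was 0.00798 to 0.0206 for Rxra, 0.00252 to 0.00871 for Nr3c1 and 0.0265 to 0.0641 for Nr1h3. Members with under 100 counts in total, such as Nr2f6, Nr5a2 and Nr1i2, allow only large differences to be seen at this depth.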
